A study of Mus musculus with 6 samples.

Results

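Serotonin acts in the frontal cortex through a family of receptors, nearly all of them coupled to G proteins. Of these, 9 genes outside the 5-HT2 family were examined: the Gi-coupled receptors Htr1a, Htr1b, Htr1d, Htr1f and Htr5a, the Gs-coupled receptors Htr4, Htr6 and Htr7, and Htr5b, whose coupling is less settled and which was kept apart. They were chosen by gene symbol, are 9 of the 19938 genes measured, and each is represented by 1 probe set that pairs with a single symbol. The chromosomes are 13 for Htr1a, 9 for Htr1b, 4 for Htr1d and Htr6, 16 for Htr1f, 5 for Htr5a, 1 for Htr5b, 18 for Htr4 and 19 for Htr7. The rule that picks them uses symbols and no measured values, but the set was chosen with earlier results of these data known.

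Gi-coupled receptors inhibit adenylyl cyclase, lower cyclic AMP and open GIRK potassium channels, so that the neuron is quieted. Gs-coupled receptors stimulate adenylyl cyclase and activate protein kinase A. In the cortex, Htr1a sits on pyramidal cells and interneurons, while Htr1b and Htr1d are best known at axon terminals, where they restrain transmitter release.

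Mice that received SAHA were compared with mice that received vehicle, which the sample titles call saline. SAHA, or suberoylanilide hydroxamic acid, is the drug vorinostat, an inhibitor of the histone deacetylases that need zinc. These enzymes strip acetyl groups off histones and other proteins. The SAHA group was injected intraperitoneally with 20 mg per kg over 21 days and the saline group with vehicle. All animals were wild-type 129S6/SvEv mice of 8 to 12 weeks, and bilateral frontal cortex was taken 1 day after the final injection. Each group holds 3 libraries on 1 whole-transcript array each. The labels do not say that the libraries came from separate mice. Each p-value therefore speaks for the scatter among these samples alone, an unknown part of which may be technical. The tissue is a mixture of cells, in which fewer cells of a type and less RNA per cell cannot be told apart.

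The array medians lay between 6.72 and 6.75 log2 in SAHA and between 6.66 and 6.71 in saline, and precision is set by how few the arrays are. Of the markers of excitatory neurons, interneurons and astrocytes measured, 4, 6 and 5, all exceeded the signal that 5% of olfactory and vomeronasal receptor genes reach, which are taken here as silent in cortex. A pair of libraries stood apart in sex-linked transcripts. Xist, the RNA of the inactive X chromosome, was at 4.63, 4.86 and 4.76 log2 in SAHA replicates 1, 2 and 3 and at 10.9, 4.86 and 4.88 in saline replicates 1, 2 and 3. The Y-linked gene Uty was at 7.93, 8.24 and 6.74 in SAHA and at 8.19, 8.12 and 8.10 in saline. Saline replicate 1 therefore stood apart in Xist, though its Y-linked genes were not low, with Eif2s3y at 9.20 and Kdm5d at 8.11. SAHA replicate 3 stood apart in Uty and also in Eif2s3y, at 7.80, and Kdm5d, at 7.23, without high Xist. In SAHA replicates 1 and 2 Eif2s3y was at 9.18 and 9.24 and Kdm5d at 8.08 and 7.90. Results are also given without this pair, saline replicate 1 and SAHA replicate 3.

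Promoter windows of 7 of the 9 receptor genes were taken from RefSeq (assembly GRCm38.p6), and none were used here for Htr4 and Htr5b. The 250 bases before each annotated start were read, which gave 9 windows, since Htr1d and Htr6 have more than 1 start. GC content ran between 49.2% and 82.0%, where the median of all 32851 windows was 52.4%. The number of CpG dinucleotides, the sites of DNA methylation in mammals, ran between 6 and 41, where the median of all windows was 6. Printed here are the windows of Htr1a and Htr7, which lie near the low and at the high end in CpG number, and of Htr1d, the receptor whose SAHA and saline values did not overlap. All are written 5′ to 3′ on the strand of the gene. Capitals mark the GC box GGGCGG, a binding motif of Sp-family factors, searched on both strands.
Htr1a, chr13:105443443-105443692, plus strand: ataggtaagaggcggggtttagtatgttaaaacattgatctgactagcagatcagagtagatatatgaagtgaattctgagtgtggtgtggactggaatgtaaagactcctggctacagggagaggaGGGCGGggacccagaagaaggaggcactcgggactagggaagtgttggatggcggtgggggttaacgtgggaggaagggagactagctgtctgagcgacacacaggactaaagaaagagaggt
Htr1d, upstream start, chr4:136423274-136423523, plus strand: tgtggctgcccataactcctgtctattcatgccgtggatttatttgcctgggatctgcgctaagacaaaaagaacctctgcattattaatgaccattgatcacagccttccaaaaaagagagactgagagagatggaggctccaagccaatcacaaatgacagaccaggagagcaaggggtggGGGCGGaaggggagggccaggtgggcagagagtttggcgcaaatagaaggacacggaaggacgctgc
Htr1d, downstream start, chr4:136424362-136424611, plus strand: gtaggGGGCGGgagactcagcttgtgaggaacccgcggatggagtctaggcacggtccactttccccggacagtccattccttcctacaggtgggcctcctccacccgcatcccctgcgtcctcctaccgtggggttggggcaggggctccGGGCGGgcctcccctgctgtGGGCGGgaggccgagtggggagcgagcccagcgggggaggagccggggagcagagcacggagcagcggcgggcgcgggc
Htr7, chr19:36057361-36057610, minus strand: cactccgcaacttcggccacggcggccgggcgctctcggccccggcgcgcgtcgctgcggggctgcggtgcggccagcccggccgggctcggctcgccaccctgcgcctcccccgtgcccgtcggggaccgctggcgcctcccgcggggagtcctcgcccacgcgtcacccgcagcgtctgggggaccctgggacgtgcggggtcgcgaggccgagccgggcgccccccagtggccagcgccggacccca

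The window of Htr1a had 1 GC box and 6 CpG sites. The windows of Htr1d had 1 and 3 GC boxes and 6 and 20 CpG sites. The window of Htr7 had 41 CpG sites, more than nearly all windows, at percentile 99.0, and held no GC box. Among the 9 windows 4 held a GC box, where 32.7% of all windows did. The cyclic AMP response element TGACGTCA and the TATA box TATAAA, each searched on both strands, were found in 0 of the 9 windows, where 1.55% and 12.4% of all windows held them. Different motifs cannot overlap in sequence, while neighbouring GC boxes can share a base and were then counted separately.

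None of the 9 receptor genes passed the test between SAHA and saline. limma with Benjamini-Hochberg adjustment over all 19938 genes called 0 of the 9 receptors and 0 of all genes (0%), and the adjusted p of the receptors lay between 0.419 and 0.973. At an unadjusted p under 0.05 there were 0 receptors, where 17.4% of all genes lay, 11.9% higher and 5.56% lower in SAHA. Without saline replicate 1 and SAHA replicate 3 both counts of receptors were 0 as well, with a lowest adjusted p of 0.756 in limma. The differences, SAHA minus saline, ran from -0.056 log2 for Htr1a to 0.19 for Htr5b, with 5 positive and 4 negative and a median of 0.013, where all genes had a median of 0.011 and 52.9% were positive. The 95% intervals reached down to -0.33 and up to 0.49 over the 9 genes, or 0.798-fold and 1.40-fold. In this fit the interval was narrowest for Htr1d and widest for Htr4. When the variance was allowed a trend, the SE of Htr1d went from 0.064 to 0.099. It was then above that of every other receptor but Htr5b and Htr4.

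**Figure D1:**
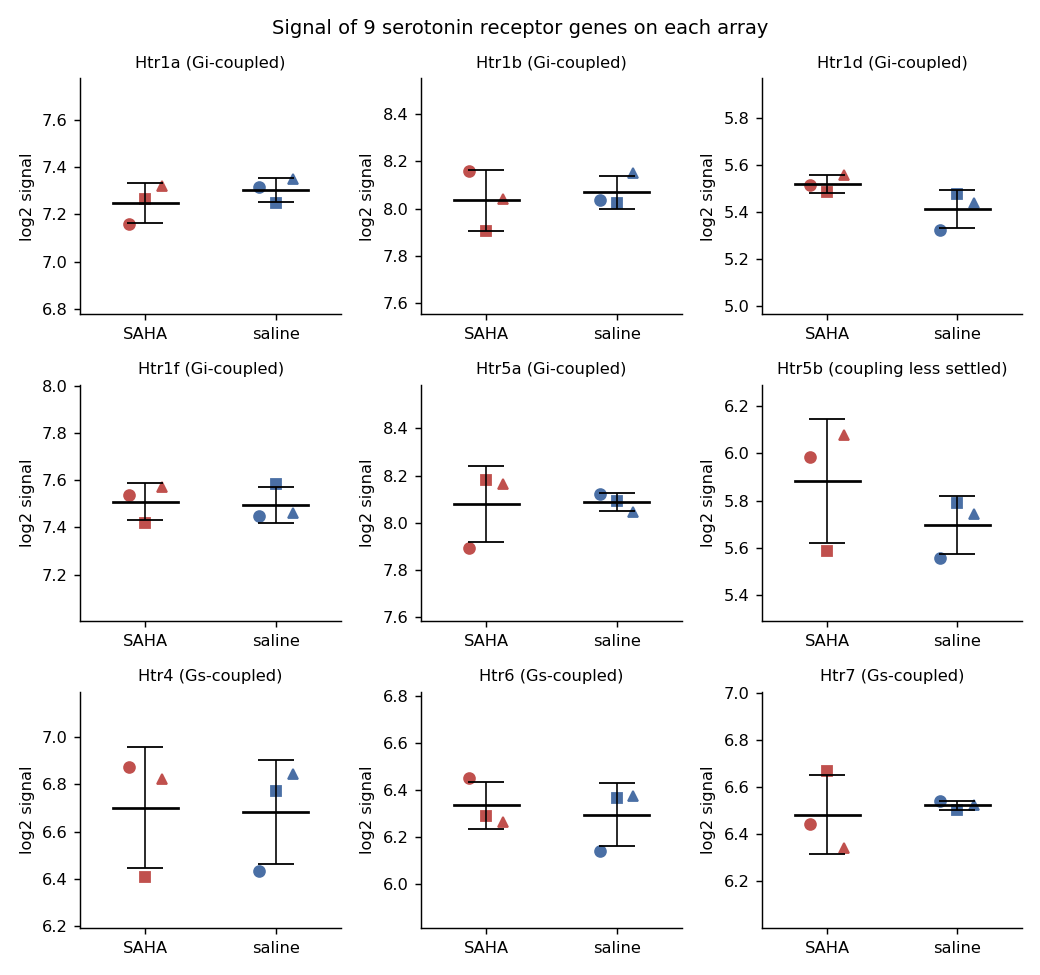
Log2 signal of the 9 receptor genes in SAHA (red, left) and saline (blue, right), 1 panel per gene, with every panel spanning 1 log2 unit. Circles, squares and triangles are replicates 1, 2 and 3, which are not paired between groups; bars are means and whiskers SD (n = 3). Only the panel of Htr1d shows groups that do not overlap, and those of Htr5b and Htr4 show the widest scatter.

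Htr1a, the receptor that also serves as the somatic autoreceptor of serotonin neurons, was at 7.16, 7.27 and 7.32 log2 in SAHA and at 7.32, 7.25 and 7.35 in saline. The groups overlapped, and SAHA replicate 1 was the lowest of the 6 arrays. The difference was -0.056 (SE 0.066, 95% interval -0.21 to 0.098), at an adjusted p of 0.680 in limma, and it was -0.011 without SAHA replicate 1. Its sign was negative under all 17 alternatives run. Genes of the same decile of signal had a median difference of 0.019.

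Htr1b, a terminal receptor of both serotonin and other neurons, was at 8.16, 7.90 and 8.04 log2 in SAHA and at 8.03, 8.02 and 8.15 in saline. Its highest and its lowest array were both SAHA libraries. The difference was -0.034 (SE 0.080, 95% interval -0.22 to 0.15), at an adjusted p of 0.846 in limma. The sign turned after quantile normalization, at 0.013.

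Htr1d, like Htr1b a target of the triptan drugs against migraine, was at 5.51, 5.49 and 5.56 log2 in SAHA and at 5.32, 5.48 and 5.44 in saline. It is the 1 receptor of the 9 (11.1%) whose groups did not overlap, where 23.9% of all genes did not, 13.6% with SAHA higher and 10.4% with SAHA lower. The gap between the lowest SAHA and the highest saline array was 0.0082. The difference was 0.11 (SE 0.064, 95% interval -0.043 to 0.25), at an adjusted p of 0.419 in limma. Genes of the same decile of signal had a median difference of 0.11 as well, and 47.7% of them had a difference at or below that of Htr1d. It was -0.0039 with quantile normalization and 0.00034 with cyclic loess. The groups overlapped under both of these scalings and when arrays were centred on their medians. Its signal was low: 22.8% of the olfactory and vomeronasal receptor genes had a mean signal at or above it. It was 0.061 without saline replicate 1, the library with high Xist.

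Htr1f, the receptor addressed by the migraine drug lasmiditan, was at 7.54, 7.42 and 7.57 log2 in SAHA and at 7.45, 7.58 and 7.46 in saline. The groups covered the same range, and the spread over all 6 arrays, 0.16, was the narrowest of the 9 genes. The difference was 0.013 (SE 0.069, 95% interval -0.15 to 0.17), at an adjusted p of 0.938 in limma, with a negative sign after median centring, at -0.026.

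Htr5a, a further Gi-coupled receptor, was at 7.89, 8.18 and 8.16 log2 in SAHA and at 8.12, 8.09 and 8.05 in saline. SAHA replicate 1 was the lowest array, while the other two SAHA arrays lay above all saline arrays. The difference was -0.0071 (SE 0.086, 95% interval -0.21 to 0.19), at an adjusted p of 0.973 in limma. It was 0.086 without SAHA replicate 1, which turned its sign.

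Htr5b, which encodes a working receptor in rodents but is a pseudogene in humans, was at 5.98, 5.58 and 6.08 log2 in SAHA and at 5.56, 5.79 and 5.74 in saline. SAHA replicates 1 and 3 lay above all saline arrays, and SAHA replicate 2 lay near the lowest of them. The difference, 0.19 (SE 0.13, 95% interval -0.11 to 0.49), was the most positive of the 9 and had an adjusted p of 0.474 in limma. The value depended on single libraries. Without SAHA replicate 2 it was 0.34, at an unadjusted p of 0.00755 and an adjusted p of 0.159 in limma, the only alternative in which a receptor reached an unadjusted p under 0.05. It was 0.088 without SAHA replicate 3, 0.12 without saline replicate 1 and 0.019 without both of these. Quantile normalization gave 0.087 and cyclic loess 0.082. The signal of Htr5b was low too, with 13.5% of the olfactory and vomeronasal receptor genes at or above it.

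Among the Gs-coupled receptors, Htr4, which promotes acetylcholine release and is studied for its part in memory, was at 6.87, 6.41 and 6.82 log2 in SAHA and at 6.43, 6.77 and 6.84 in saline. SAHA replicate 2 and saline replicate 1 were both about as low, and the other 4 arrays lay close together. These are also the lowest arrays for Htr5b. The difference was 0.018 (SE 0.15, 95% interval -0.33 to 0.36), the least precise of the 9, at an adjusted p of 0.962 in limma. It was 0.17 without SAHA replicate 2, -0.11 without saline replicate 1 and -0.17 without saline replicate 1 and SAHA replicate 3.

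Htr6, a receptor found almost exclusively in the brain, was at 6.45, 6.29 and 6.27 log2 in SAHA and at 6.14, 6.37 and 6.38 in saline. The groups overlapped, with saline replicate 1 the lowest array. The difference was 0.039 (SE 0.087, 95% interval -0.16 to 0.24), at an adjusted p of 0.834 in limma, and it turned to -0.052 after quantile normalization and to -0.047 after cyclic loess. A share of 5.28% of the olfactory and vomeronasal receptor genes lay at or above its signal.

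Htr7, a receptor linked to circadian timing and thermoregulation, was at 6.44, 6.67 and 6.34 log2 in SAHA and at 6.54, 6.50 and 6.52 in saline. The saline arrays lay close together, and the SAHA arrays lay on both sides of them. The difference was -0.038 (SE 0.087, 95% interval -0.24 to 0.16), at an adjusted p of 0.840 in limma. Genes of the same decile of signal had a median difference of 0.098, and 17.5% of them had a difference at or below that of Htr7, which was -0.12 after quantile normalization. Without SAHA replicate 2 it was -0.13, at an adjusted p of 0.323.

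**Figure D2:**
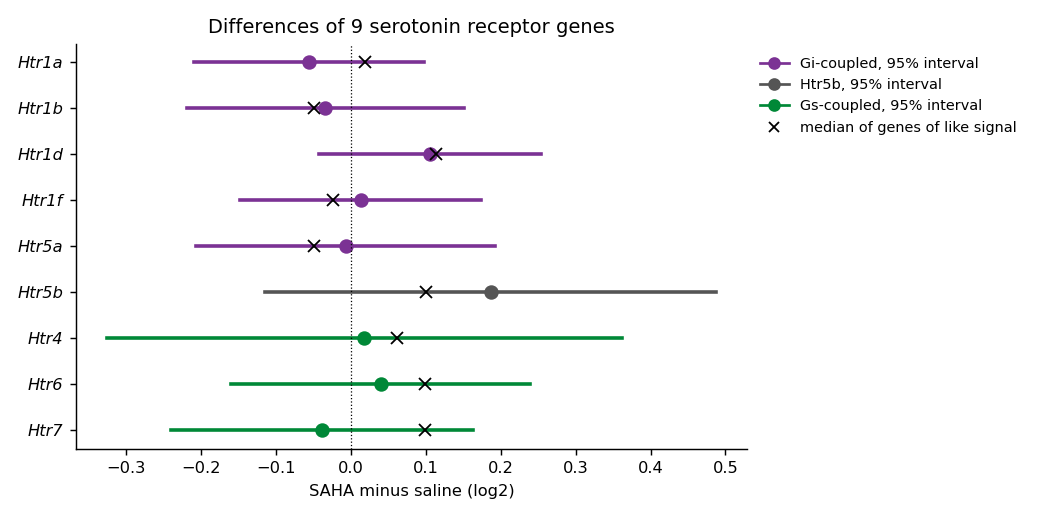
Difference in log2 signal, SAHA minus saline, of the 9 receptor genes (dots) with 95% intervals of the moderated fit (lines), for Gi-coupled receptors, Htr5b and Gs-coupled receptors from top to bottom. Crosses are the median difference of genes in the same decile of signal. Every interval includes 0, the lowest bound being -0.33 and the highest 0.49.

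The receptors differed in how much they scattered within groups. The within-group SD was 0.062 for Htr1d, 0.069 for Htr1a and 0.077 for Htr1f, at percentiles 22.8, 28.2 and 34.8 of all genes. It was 0.20 for Htr5b and 0.24 for Htr4, at percentiles 92.7 and 96.2. The median of all genes was 0.096. Htr1b, Htr5a, Htr6 and Htr7 lay between 0.10 and 0.12. SAHA replicate 2 was the lowest of the 6 arrays for 3 receptors and saline replicate 1 for 3, while SAHA replicate 1 was the highest for 3 and saline replicate 1 for 0. The mean over the 9 probe sets was 6.89, 6.80 and 6.91 log2 in SAHA and 6.77, 6.87 and 6.88 in saline, with saline replicate 1 lowest and SAHA replicate 2 the next.

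Neither coupling class had a common direction. Of the 5 Gi-coupled receptors 2 had a positive and 3 a negative difference, and of the 3 Gs-coupled receptors 2 had a positive and 1 a negative one. The mean over the 5 Gi-coupled receptors, each relative to its saline mean, was -0.021, -0.022 and 0.056 log2 in SAHA and -0.026, 0.011 and 0.015 in saline. The mean over the 3 Gs-coupled receptors was 0.089, -0.046 and -0.024 in SAHA and -0.13, 0.047 and 0.081 in saline. The groups overlapped in both classes. Gi minus Gs was -0.11, 0.024 and 0.081 in SAHA and 0.10, -0.036 and -0.067 in saline. Its change, SAHA minus saline, was -0.0020, where the SD between arrays was 0.098 in SAHA and 0.090 in saline. No test was made of these means, since the genes were chosen with results known.

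The differences of the receptors were set against their signal, since differences over the whole array varied with signal. The median difference was 0.11 log2 in the decile of genes that holds Htr1d and -0.050 in the decile that holds Htr1b and Htr5a. Of the 9 receptors, 4 lay above the median of their own decile (Htr1b, Htr1f, Htr5a and Htr5b) and 5 below. Htr5b stood at percentile 73.3 of its decile and Htr7 at 17.5, and the other 7 lay between 29.5 and 66.4. Probe sets bind their targets unequally, so signals of different genes do not rank their transcripts.

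**Figure D3:**
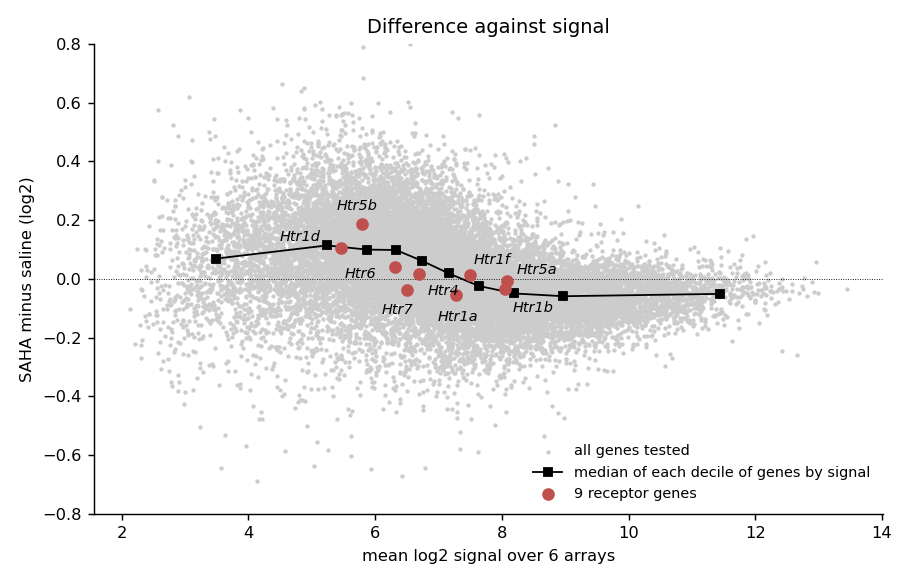
Difference in log2 signal, SAHA minus saline, against the mean log2 signal over the 6 arrays, for all 19938 genes (grey), the medians of deciles of genes by signal (black squares) and the 9 receptor genes (red). The axis is limited to 0.8 in both directions, which leaves out 1 gene. The receptors lie in the middle of the cloud, with Htr5b above the line of medians and Htr7 below it.

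By the fixed measure of likeness, the root-mean-square distance between log2 profiles centred on their own means over the 6 arrays, the genes closest to Htr5a, the brightest Gi-coupled receptor, were Ift88 at 0.026, Atad5 at 0.027 and Pdzd4 at 0.028. The median distance of the 9674 candidate genes was 0.11. For Htr4, the brightest Gs-coupled receptor, they were Tada2b at 0.047, Erf at 0.047 and Fxyd4 at 0.057, where the median was 0.22. Candidates were genes at or above the median signal, 6.94 log2, without predicted genes. Htr4 itself lay below that signal, at 6.69. All 6 had differences between -0.046 and 0.023. The choice by likeness held these near the differences of Htr5a and Htr4, -0.0071 and 0.018, so they are no separate result.

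The rest of the serotonin system and the signalling downstream of these receptors is given from lists of 9 groups, and 0 of their genes passed the adjusted threshold in limma. Of the other serotonin receptors 5 were measured, with a median difference of 0.0058, which lay between -0.033 and 0.074 over the alternatives. Htr2a, the receptor through which classical hallucinogens act, was at 9.80, 9.48 and 9.69 log2 in SAHA and at 9.87, 9.64 and 9.50 in saline, a difference of -0.013 (SE 0.11). Htr2b and Htr2c differed by 0.085 (SE 0.085) and -0.018 (SE 0.066), and Htr3a, a subunit of the serotonin-gated cation channel, by 0.0058 (SE 0.071). Htr3b, the partner subunit of Htr3a, was at 6.65, 6.34 and 6.60 in SAHA and at 6.04, 6.08 and 6.41 in saline. It alone among the 14 serotonin receptor genes reached an unadjusted p under 0.05, where 17.4% of all genes did. Its difference was 0.36 (SE 0.12), at an unadjusted p of 0.0192 and an adjusted p of 0.212 in limma, and its groups overlapped. Its mean signal was low, at 6.35 log2, with 4.94% of the olfactory and vomeronasal receptor genes at or above it. Genes of the same decile of signal had a median difference of 0.098. The unadjusted p of Htr3b stayed under 0.05 in 11 of 16 alternatives. It did not without SAHA replicate 1 or 3 or saline replicate 1 or 2, with differences between 0.29 and 0.32, nor without saline replicate 1 and SAHA replicate 3 together, at 0.25.

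Of the genes of serotonin synthesis, transport and breakdown, 9 of 10 listed were measured, with a median difference of 0.090, and 1 was higher and 1 lower at an unadjusted p under 0.05, where 17.4% of all genes lay. The median had no settled sign. It was -0.0053 with quantile normalization, -0.0075 when the pair that stood apart was left out, and -0.0043 with cyclic loess. Once genes below the median signal were dropped, only Maoa and Maob remained of this list. Their median of -0.25 describes these genes alone and is not a change of sign of the whole list. Ddc, the decarboxylase that makes serotonin and dopamine, was at 6.50, 6.48 and 6.57 log2 in SAHA and at 6.38, 6.30 and 6.28 in saline, a difference of 0.20 (SE 0.061) at an adjusted p of 0.185 in limma. It was 0.11 with quantile normalization, at an unadjusted p of 0.112, and 0.12 with cyclic loess, at 0.0986. Maob, a monoamine oxidase of astrocytes and serotonin neurons, was at 7.14, 7.09 and 6.95 in SAHA and at 7.55, 7.19 and 7.37 in saline, a difference of -0.31 (SE 0.098) at an adjusted p of 0.195. Without SAHA replicate 3 it was -0.25, at an unadjusted p of 0.0530, and without this library and saline replicate 1 it was -0.16, at 0.127. In both genes the groups did not overlap. Maoa, the oxidase that prefers serotonin, singled out after its values were seen, differed by -0.20 (SE 0.098), at an adjusted p of 0.331 in limma, and by -0.12 without SAHA replicate 1 or without saline replicate 1. Of 5 measured markers of serotonin neurons, whose cell bodies lie in the raphe, 3 had a signal that more than 5% of olfactory and vomeronasal receptor genes reached. They included Tph2, the neuronal serotonin-synthesising enzyme, at 4.95, 4.79 and 4.80 in SAHA and at 4.60, 5.11 and 4.80 in saline.

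The 6 lists of signalling genes had medians between -0.057 and -0.029, and not all of these kept their sign. Quantile normalization and cyclic loess gave 0.027 and 0.020 for the protein kinase A subunits, 0.0088 and 0.0022 for the cyclic AMP phosphodiesterases, and -0.015 and -0.0080 for the G protein alpha subunits. The median of the GIRK channels was 0.0032 without saline replicate 2. The G protein alpha subunits (6 of 7 listed measured, 5 lower) and protein kinase A subunits (5 of 6, 4 lower) had no gene at an unadjusted p under 0.05, nor had the cyclic AMP phosphodiesterases (15 of 15, 11 lower) or the receptor kinases and arrestins (6 of 7, 5 lower). Over all genes 17.4% lay under that p in limma, 11.9% higher and 5.56% lower in SAHA. The median signals of the receptor kinases and arrestins, 7.54 log2, and of the adenylyl cyclases, 7.79, lay in a decile of all genes with a median difference of -0.024. Those of the other 4 lists lay in the 3 deciles of brightest genes, which start at 7.89 and had median differences between -0.059 and -0.050. Of 9 adenylyl cyclases, 7 were lower, and 1, Adcy4, was higher at an unadjusted p under 0.05. Adcy4 was at 7.11, 6.96 and 7.02 log2 in SAHA and at 6.52, 6.86 and 6.78 in saline, a difference of 0.31 (SE 0.096) at an adjusted p of 0.186 in limma, and of 0.22 at an unadjusted p of 0.0560 without saline replicate 1 and SAHA replicate 3. Of 4 GIRK channel subunits, 3 were lower, among them Kcnj9, the subunit GIRK3, at 7.87, 8.03 and 7.79 in SAHA and at 8.04, 8.13 and 8.14 in saline. Its difference was -0.21 (SE 0.078), at an adjusted p of 0.239 in limma. The unadjusted p of Kcnj9 stayed under 0.05 in 10 of 17 alternatives, but not with quantile normalization, at -0.16, with cyclic loess, at -0.17, or without SAHA replicate 1 or 3, saline replicate 2 or 3, or the pair that stood apart, at -0.19 to -0.15.

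**Figure D4:**
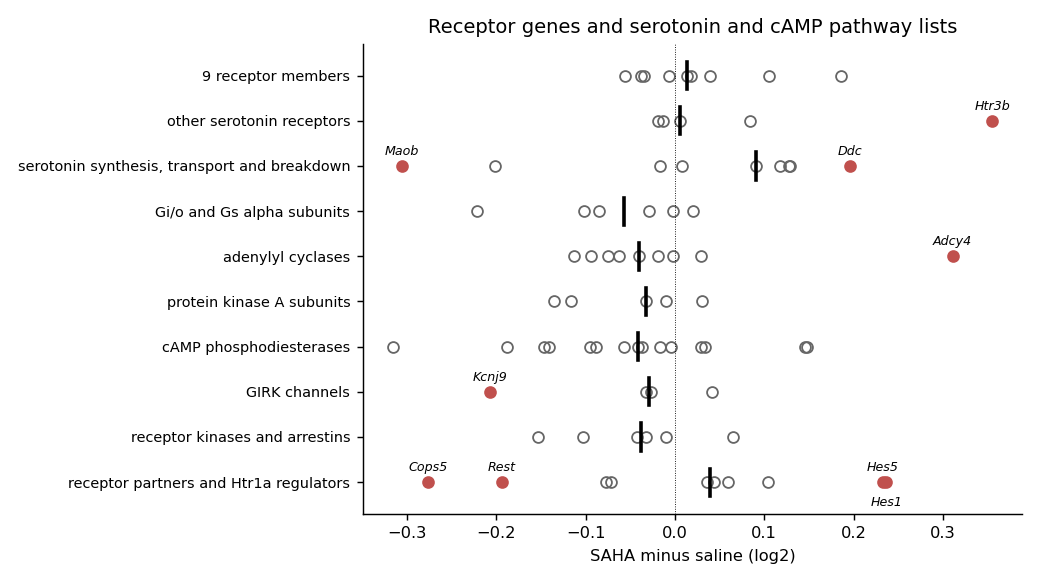
Difference in log2 signal, SAHA minus saline, of the 9 receptor genes (top row) and of the genes in 9 lists of the serotonin and cyclic AMP pathways, 1 circle per gene. Filled circles are at an unadjusted p under 0.05 in limma, and bars are list medians. The receptors have no filled circle, and the partners and regulators at the bottom have 4.

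Partners of the receptors and regulators of Htr1a had 10 of 10 genes measured, with 2 higher and 2 lower at an unadjusted p under 0.05; over all genes 17.4% lay under it. Cops5 (Jab1), a subunit of the COP9 signalosome that binds the receptor encoded by Htr6, was at 9.27, 9.40 and 9.34 log2 in SAHA and at 9.69, 9.55 and 9.60 in saline. All SAHA arrays were below all saline arrays, and the difference was -0.28 (SE 0.067), at an adjusted p of 0.138 in limma. Hes5, a Notch-induced repressor described at the promoter of the human gene HTR1A, was at 7.79, 7.76 and 7.87 in SAHA and at 7.53, 7.64 and 7.55 in saline, a difference of 0.23 (SE 0.063) at an adjusted p of 0.157, and of 0.18 at an unadjusted p of 0.0686 without saline replicate 1 and SAHA replicate 3. Rest, the repressor of neuronal genes, was at 6.76, 6.69 and 6.67 in SAHA and at 6.98, 6.80 and 6.93 in saline, a difference of -0.19 (SE 0.068) at an adjusted p of 0.221. Its unadjusted p stayed under 0.05 in 11 of 16 alternatives, and not without SAHA replicate 2 or 3, saline replicate 1 or 3, or the pair that stood apart, where Rest differed by -0.19 to -0.14. Hes1, a relative of Hes5, added after its values were seen, differed by 0.24 (SE 0.087), at an adjusted p of 0.232 in limma, with an unadjusted p under 0.05 in 9 of 16 alternatives. S100a10 (p11), which brings the receptors encoded by Htr1b and Htr4 to the membrane, differed by 0.036 (SE 0.070). Htr6 and Htr1a themselves had intervals that included 0.

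Htr1b, Htr4 and Htr6 are also expressed in the striatum, which borders the dissected tissue. Of 9 striatal marker genes listed, 7 were measured, with a median difference of 0.12, 1 of them at an unadjusted p under 0.05, where 17.4% of all genes lay. Their mean signal ran between 7.18 and 7.51 log2 in SAHA and between 7.13 and 7.40 in saline, highest in replicate 3 of each group. Defining genes of these neurons were above the dim end of the array, Drd1 at 7.44, 7.61 and 7.83 in SAHA and at 7.63, 7.52 and 7.80 in saline. Their part in the receptor values was not tested.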

How the data were processed

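Per the labels' protocols, RNA of each sample went through whole-transcript amplification and biotin labelling for 1 array. What the authors deposited are log2 values, made with Affymetrix Expression Console and RMA according to the submitters' processing notes, which name no version. RMA includes a normalisation between arrays. Among 35556 probe sets the platform annotation gives 1 symbol to 21789, several to 1621 and none to 12146. A gene was read from its brightest single-symbol probe set, which gave 19938 genes.

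The comparison of SAHA with saline used limma 3.58.1 (lmFit, eBayes; R 4.3.3) on all genes, with no block, no filter and two-sided tests, adjusted over all genes (threshold 0.05). The fit was tested on simulated data with known changes. RefSeq gene tables gave chromosomes only. Alternatives were other scalings, a signal filter, other probe set summaries, other variance settings, array weights, the replicate number as a block, and arrays left out.

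The receptors, lists and tests were chosen with earlier results of these data known. Genes named from a list were at most the 3 of smallest unadjusted p under 0.05. Htr2a, Htr2b, Htr2c, Htr3a, Tph2, Maoa, S100a10, Hes1 and Drd1 fall outside this rule and were named with their values known. For the pathway lists, Gnas, Prkaca, Slc22a3 and Grk2 were not analysed here. Some genes of the marker lists were not analysed here. The lists of microglia, oligodendrocyte, choroid plexus and hippocampal or habenular markers had medians of -0.092, -0.034, 0.11 and 0.011, and those of excitatory neurons, interneurons, astrocytes and raphe neurons 0.023, -0.015, -0.055 and 0.0077.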

Additional observations from a re-analysis of the deposited data

How the results depend on the processing

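Under every alternative run, 0 receptors passed the adjusted threshold, also at 0.1. The receptors at an unadjusted p under 0.05 numbered 0, and between 0 and 1 with each library left out in turn. Over all genes limma called 28 when the variance was allowed a trend, 31 when that trend was robust, and 27 when dim genes below the median were dropped, Htr1d, Htr5b and the 3 Gs-coupled receptors among them. It called 0 under the other alternatives. Htr1a and Htr5b were the receptors whose sign held throughout. Signs turned for Htr1f (at -0.026) and Htr4 (at -0.021) after median centring, for Htr1b (at 0.013), Htr1d (at -0.0039), Htr5a (at 0.043), Htr4 (at -0.049) and Htr6 (at -0.052) after quantile normalization, for Htr1b (at 0.0054), Htr5a (at 0.034), Htr4 (at -0.044) and Htr6 (at -0.047) after cyclic loess, for Htr5a (at 0.0012) with array weights, and for Htr1f (at -0.042), Htr4 (at -0.17), Htr6 (at -0.0021) and Htr7 (at 0.043) without saline replicate 1 and SAHA replicate 3. The cause was not tested. With each library left out in turn, differences lay for Htr1f between -0.017 and 0.057, Htr5a between -0.058 and 0.086, Htr4 between -0.11 and 0.17, Htr6 between -0.037 and 0.080, Htr1b between -0.097 and 0.031 and Htr7 between -0.13 and 0.033. Over all alternatives run for it, the change of Gi minus Gs lay between -0.043 and 0.076, the latter with quantile normalization. With each library left out in turn it lay between -0.043 and 0.052. Of the genes named from the pathway lists, Htr3b, Ddc, Maob, Adcy4, Kcnj9, Cops5, Hes5, Rest, Maoa and Hes1 were followed through the alternatives. They kept their sign in each alternative that held them, and 0 passed the adjusted threshold. The other named genes of these lists were not followed. Of these, Cops5 alone stayed at an unadjusted p under 0.05 in all alternatives run. Deviations of libraries with the same replicate number correlated at -0.105, -0.0792 and 0.015 across genes, so the numbers were not taken to pair them. With the replicate number as a block limma called 0 genes and 0 receptors, and Htr5b had an adjusted p of 0.511. Precision was limited by 3 arrays a group.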
